A study of Mus musculus with 11 samples.

Results

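The 2',5'-oligoadenylate synthetase (OAS) genes were examined in embryonic hearts of mice without the phosphodiesterase Pde2A. The 8 members were taken by symbol and were *Oas1a*, *Oas1b*, *Oas1c*, *Oas1g*, *Oas2*, *Oas3*, *Oasl1* and *Oasl2*, out of 55487 genes in the count files. RNA was sequenced from whole hearts of 5 *Pde2A*-/- embryos (A, B, 14, D and 15) and 6 *Pde2A*+/+ embryos (7, 11, 6, 8, H and E), none of them treated. All embryos were of the mixed-background line B6; 129P2-Pde2A<tm1Dgen>, came from matings of heterozygous parents and were collected alive at E14.5, males and females together. The allele is constitutive, so Pde2A was missing from the whole embryo and not from the heart alone. The litter of each embryo was not given, and p-values measure the spread between these embryos.

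OAS enzymes bind double-stranded RNA and polymerise ATP into short 2',5'-linked oligoadenylates. These oligoadenylates act as second messengers of the antiviral defence of the cell. Most OAS genes are induced by type I interferon through a complex that includes Stat2 and Irf9 and binds an interferon-stimulated response element, and the mouse family is enlarged by tandem copies of the *Oas1* gene.

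The reads assigned to genes numbered 35865537 to 42835382 in a heart. Cardiomyocyte genes were abundant in both genotypes: *Myh7*, a myosin heavy chain, had 13136 ± 1646 CPM (counts scaled to a common library size; SD, n = 5) in *Pde2A*-/- and 13841 ± 2617 (SD, n = 6) in *Pde2A*+/+ hearts. The targeted gene could not check the genotype labels, because *Pde2a* had 7 counts in all 11 hearts together. The authors list *Pde2a* among the phosphodiesterases expressed in the heart, and the cause of the low count was not tested. Heart 7 (*Pde2A*+/+) stood apart, with 28.74 CPM summed over 6 lymphoid and plasmacytoid markers against at most 0.3363 CPM in each other heart. Transcripts of other tissues, including *Alb*, the liver-made serum albumin, reached at most 105.2 CPM in sum (heart E). Some results are therefore also given without heart 7 or other single hearts.

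The members lie in a pair of groups on chromosome 5 (GRCm38, GENCODE M21), with 5.792 Mb between them. *Oasl2* (114896936 to 114912234, plus strand) and *Oasl1* (114923240 to 114937915, plus strand) form the first. The second runs from *Oas2* (120730333 to 120749853, minus strand) and *Oas3* (120753098 to 120777661, minus strand) through *Oas1c* (120800194 to 120812514, minus strand), *Oas1b* (120812635 to 120824163, plus strand) and *Oas1g* (120876142 to 120887613, minus strand) to *Oas1a* (120896256 to 120907521, minus strand). *Oas1b* and *Oas1c* point away from each other with 121 bases between their starts. *Oas1b* is annotated as a polymorphic pseudogene, a gene that is intact in some mouse strains only. The files name the members by Ensembl identifier: ENSMUSG00000052776 (*Oas1a*), ENSMUSG00000029605 (*Oas1b*), ENSMUSG00000001166 (*Oas1c*), ENSMUSG00000066861 (*Oas1g*), ENSMUSG00000032690 (*Oas2*), ENSMUSG00000032661 (*Oas3*), ENSMUSG00000041827 (*Oasl1*) and ENSMUSG00000029561 (*Oasl2*).

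RefSeq promoter windows (GRCm38.p6, 250 bases before to 50 after the start) were found for 6 of the 8 members, and *Oas1b* and *Oas2* had none. The core of the interferon-stimulated response element, written as GAAA, any 2 bases and GAAA again, was searched on both strands and it occurred in 1131 of 32851 windows (3.44%). Of the 6 members, 4 held a match. The windows of these 4 are shown, all 5′ to 3′ on the minus strand, with the matching letters in capitals, at chr5:120907476-120907775 (*Oas1a*), chr5:120887564-120887863 (*Oas1g*), chr5:120812465-120812764 (*Oas1c*) and chr5:120777610-120777909 (*Oas3*).
Oas1a: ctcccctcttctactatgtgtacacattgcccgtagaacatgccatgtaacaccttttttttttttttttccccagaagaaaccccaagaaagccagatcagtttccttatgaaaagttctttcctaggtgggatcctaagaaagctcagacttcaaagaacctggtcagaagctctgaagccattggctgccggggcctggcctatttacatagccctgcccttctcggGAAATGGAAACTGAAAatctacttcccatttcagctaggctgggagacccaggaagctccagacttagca
Oas1g: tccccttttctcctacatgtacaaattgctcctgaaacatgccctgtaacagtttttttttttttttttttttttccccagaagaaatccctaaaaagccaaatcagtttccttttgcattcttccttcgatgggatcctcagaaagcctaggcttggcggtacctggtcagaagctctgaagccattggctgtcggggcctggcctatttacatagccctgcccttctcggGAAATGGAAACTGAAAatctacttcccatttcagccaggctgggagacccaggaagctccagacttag
Oas1c: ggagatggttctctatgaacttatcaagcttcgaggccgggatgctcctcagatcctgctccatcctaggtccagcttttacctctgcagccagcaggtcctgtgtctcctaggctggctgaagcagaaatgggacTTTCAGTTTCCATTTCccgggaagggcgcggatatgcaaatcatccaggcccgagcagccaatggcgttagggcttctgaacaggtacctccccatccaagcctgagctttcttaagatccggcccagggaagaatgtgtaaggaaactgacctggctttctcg
Oas3: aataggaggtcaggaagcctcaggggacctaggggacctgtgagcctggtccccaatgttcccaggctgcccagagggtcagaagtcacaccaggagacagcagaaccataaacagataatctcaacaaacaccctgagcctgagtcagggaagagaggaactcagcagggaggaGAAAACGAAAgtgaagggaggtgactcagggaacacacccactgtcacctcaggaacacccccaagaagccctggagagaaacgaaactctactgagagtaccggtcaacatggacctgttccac

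*Oas1a* and *Oas1g* held the same 16 letters, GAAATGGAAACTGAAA, from 20 to 5 bases and from 18 to 3 bases before their starts. In *Oas1c* the same 16 letters lay on the opposite strand, 114 to 99 bases before its start. On that strand they ended 6 bases before the annotated start of *Oas1b*. The *Oas3* window held GAAAACGAAA from 75 to 66 bases before its start. *Oasl1* and *Oasl2* had no match in these windows. The 16 letters occurred in 7 of all windows (0.0213%).

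**Figure D1:**
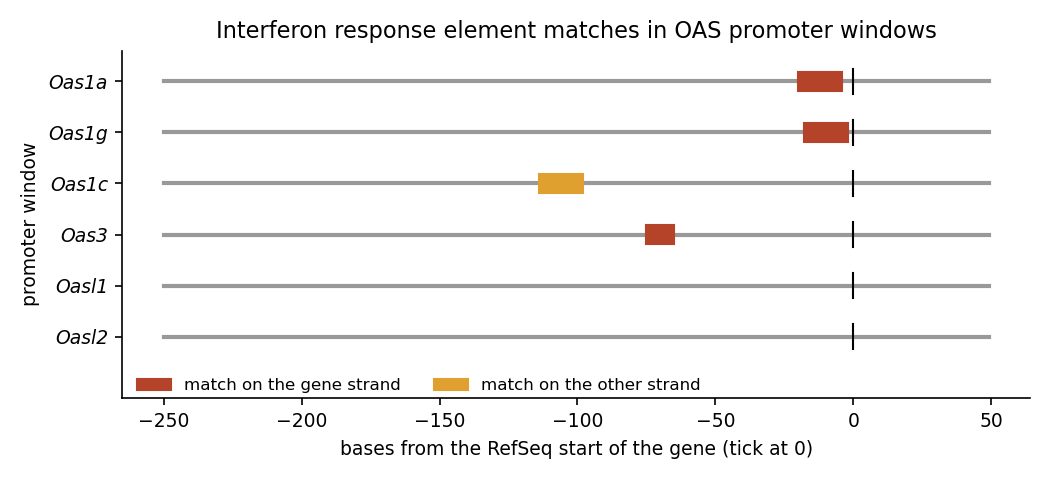
Positions of the element core (GAAA, any 2 bases, GAAA) in the RefSeq promoter windows of 6 OAS genes; the x axis is the distance in bases from the gene's start, and colour marks the strand. *Oas1a* and *Oas1g* held the match next to the start, *Oas3* held it further out, *Oas1c* held it on the other strand, and *Oasl1* and *Oasl2* held none.

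To ask whether loss of Pde2A changed the OAS genes, *Pde2A*-/- and *Pde2A*+/+ hearts were compared. A gene was called when its edgeR adjusted p was under 0.05 and its change at least 2-fold. Of the 8 members 7 were called higher in *Pde2A*-/- hearts, against 535 of the 24177 genes tested (2.21%), and none was called lower, against 0.372% of all genes. The median log2 fold change of the 8 members was 2.79, beside -0.02 for all genes tested. For 6 members every *Pde2A*-/- heart was above every *Pde2A*+/+ heart, which held for 5.38% of all genes tested. In whole hearts, more cells of a type and more RNA per cell cannot be told apart.

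**Figure D2:**
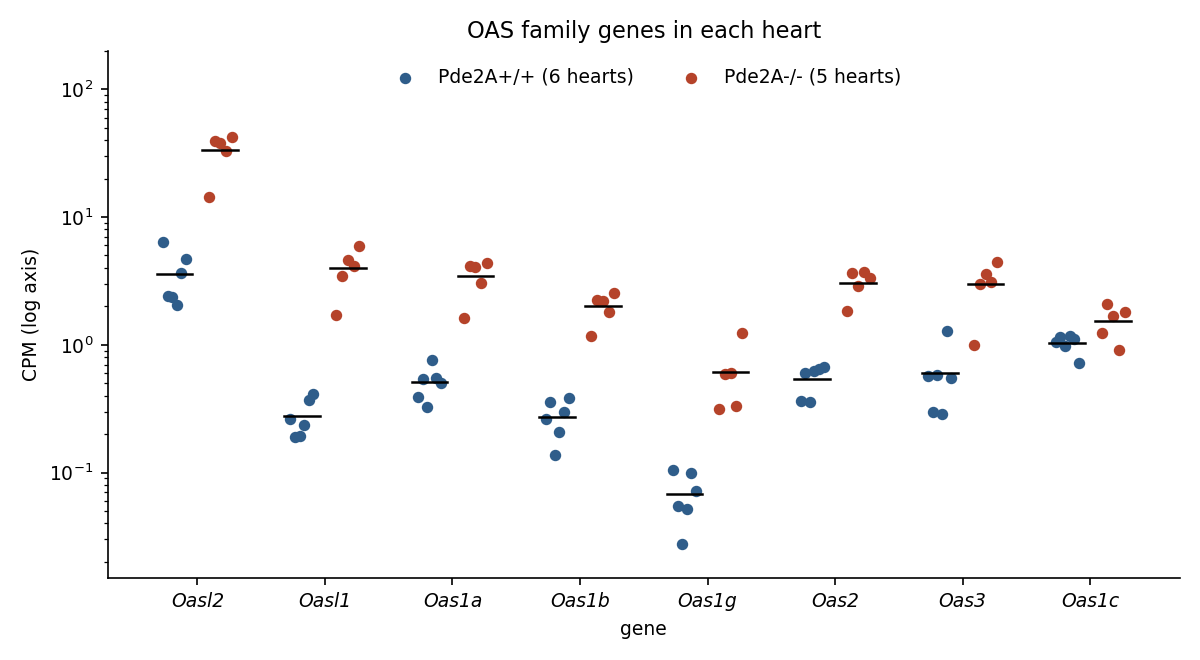
CPM of the 8 OAS genes in each heart, on a log axis; each point is one heart and the bar is the mean of its genotype. The genotypes were apart for 6 OAS genes, overlapped through hearts A and H for *Oas3*, and overlapped through heart D for *Oas1c*.

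The OAS-like genes changed by the largest factors. *Oasl1*, whose protein lacks synthetase activity and is known to restrain translation of *Irf7*, had 1.72, 3.47, 4.61, 4.16 and 5.98 CPM in hearts A, B, 14, D and 15. In *Pde2A*+/+ hearts it ranged from 0.19 to 0.41 CPM, with a median of 0.248. The lowest *Pde2A*-/- heart was thus 4.22 times the highest *Pde2A*+/+ heart, and the log2 fold change was 3.82 ± 0.31 (SE; adjusted p = 8.69e-06), a 14.2-fold rise. *Oasl2*, an OAS-like gene with ubiquitin-like repeats, had 14.3, 39.5, 37.9, 32.6 and 42.6 CPM in the same hearts. In *Pde2A*+/+ hearts it ranged from 2.06 to 6.34 CPM with a median of 3.04, and heart 7 was the highest. The genotypes did not overlap, and *Oasl2* rose 9.25-fold (log2 3.21 ± 0.32, adjusted p = 3.34e-05). Without heart 7 its log2 fold change was 3.44.

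Of the *Oas1* genes, *Oas1a*, an active synthetase, had 1.62, 4.11, 4.06, 3.02 and 4.38 CPM in hearts A, B, 14, D and 15. In *Pde2A*+/+ hearts it lay between 0.329 and 0.758 CPM, with a median of 0.524. The genotypes were apart, and the rise was 6.67-fold (log2 2.74 ± 0.27, adjusted p = 3.12e-05). *Oas1b*, known as the flavivirus resistance gene, had 1.17, 2.24, 2.22, 1.80 and 2.56 CPM, against 0.137 to 0.384 (median 0.28) in *Pde2A*+/+ hearts. Here too no heart of one genotype reached the other, and *Oas1b* rose 7.20-fold (log2 2.85 ± 0.26, adjusted p = 1.94e-05). *Oas1g* was the member with the fewest reads, 12, 25, 24, 12 and 45 counts in *Pde2A*-/- hearts and 1 to 4 counts in each *Pde2A*+/+ heart. Its rise of 8.56-fold (log2 3.10 ± 0.43, adjusted p = 5.28e-04) had the largest error of the 8 members. The levels of *Oas1a* and *Oas1g* are uncertain, because their transcripts share sequence. Of the 50-base words of the *Oas1a* transcripts 57.6% also occur in other genes, and 45.7% of those of *Oas1g*, chiefly in each other.

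The larger synthetases rose as well. *Oas2*, built of a pair of OAS units, had 1.83, 3.64, 2.86, 3.72 and 3.31 CPM in hearts A, B, 14, D and 15. In *Pde2A*+/+ hearts it lay between 0.356 and 0.673 CPM (median 0.613), all under the lowest *Pde2A*-/- heart. *Oas2* rose 5.60-fold (log2 2.49 ± 0.23, adjusted p = 1.94e-05). *Oas3*, built of several OAS units and a strong binder of long double-stranded RNA, had 0.991, 2.998, 3.56, 3.11 and 4.41 CPM. In *Pde2A*+/+ hearts it lay between 0.287 and 1.29 CPM (median 0.563). Heart A fell under the *Pde2A*+/+ heart H, and the other *Pde2A*-/- hearts were above all *Pde2A*+/+ hearts. The rise of *Oas3* was 5.01-fold (log2 2.32 ± 0.40, adjusted p = 0.00281), and its log2 value was 2.71 without heart H.

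*Oas1c* was the member not called. It had 1.23, 2.10, 1.67, 0.916 and 1.79 CPM in hearts A, B, 14, D and 15, against 0.721 to 1.18 (median 1.08) in *Pde2A*+/+ hearts. Hearts of both genotypes overlapped through heart D, which was under most *Pde2A*+/+ hearts. The other *Pde2A*-/- hearts were above all *Pde2A*+/+ hearts. The log2 fold change was 0.58 ± 0.21 (edgeR adjusted p = 0.0827), with an adjusted p of 0.0417 in DESeq2 and of 0.0417 without heart D. The other *Oas1* copies were close to silent: *Oas1d* and *Oas1h* had 0 counts in every heart, *Oas1e* had 5 counts and *Oas1f* 1 count over all hearts, and 0 of these 4 had the 10 counts needed for a test.

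**Figure D3:**
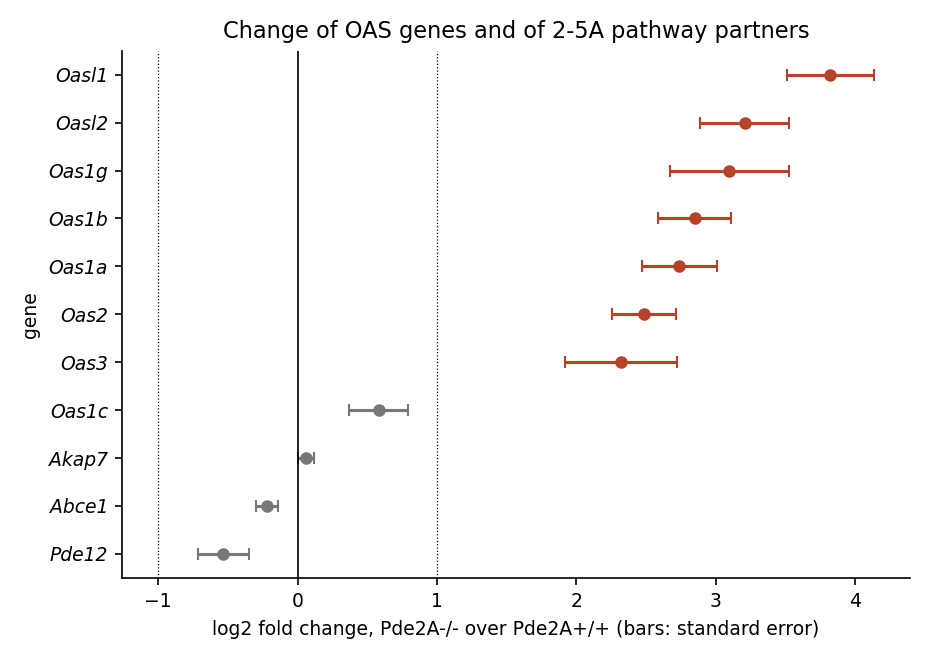
Log2 fold changes, *Pde2A*-/- against *Pde2A*+/+, with standard errors, for the OAS genes and the partner genes of the pathway; dotted lines mark a 2-fold change and red marks called genes. The 7 called members lay between 2.32 (*Oas3*) and 3.82 (*Oasl1*) and *Oas1c* at 0.58.

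Whether members changed by different amounts was tested on the log2 ratio of each pair within a heart, with a two-sided exact permutation test over the 462 splits of the hearts (smallest possible p = 0.002165). Of 28 pairs 14 differed after adjustment over the pairs. *Oas1c* differed from each of the other members in 7 of 7 pairs. It changed less than its neighbour *Oas1b* by 2.15 on the log2 scale (adjusted p = 0.00673, exact permutation test), with no overlap of the genotypes. *Oasl1* rose more than *Oas1a*, *Oas1b*, *Oas1g*, *Oas2* and *Oas3* in 5 of 5 pairs, by 0.90 (*Oas1b*) to 1.30 (*Oas3*). *Oasl2* rose more than *Oas3*, by 0.96 (adjusted p = 0.0233, exact permutation test). The pair of *Oasl2* and *Oas1g* rested on the prior count added before the ratio was taken, which weighs on the 1 to 4 *Oas1g* counts of *Pde2A*+/+ hearts. Their changes differed by 0.87 with a prior count of 2 (adjusted p = 0.0433, exact permutation test) and by 0.38 with a prior count of 0.5 (adjusted p = 0.333, exact permutation test), and the edgeR fold changes of the pair lay within their errors. The log2 ratio of *Oasl1* to *Oasl2* was -3.06 ± 0.25 (SD, n = 5) in *Pde2A*-/- and -3.40 ± 0.50 (SD, n = 6) in *Pde2A*+/+ hearts, a difference of 0.34 that was not past the threshold (exact permutation test, adjusted p = 0.297). Among *Oas1a*, *Oas1b*, *Oas1g*, *Oas2* and *Oas3*, 0 of 10 pairs differed by the exact permutation test, and 0 had an unadjusted p under 0.05.

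Levels were compared between genes as CPM per kilobase of exon. In *Pde2A*+/+ hearts the mean level was 0.565 for *Oasl2*, 0.429 for *Oas1c* and 0.272 for *Oas1a*. *Oas1b* (0.138), *Oas2* (0.122), *Oasl1* (0.106), *Oas3* (0.0844) and *Oas1g* (0.0292) followed. The ranges over hearts overlapped in 7 of the 7 neighbouring pairs of this order. In *Pde2A*-/- hearts the level of *Oasl2* was 5.24 CPM per kilobase, followed by *Oas1a* (1.82), *Oasl1* (1.53), *Oas1b* (1.004), *Oas2* (0.69), *Oas1c* (0.64), *Oas3* (0.426) and *Oas1g* (0.263). Neighbours in this order overlapped as well, *Oasl2* at 2.24 to 6.68 with *Oas1a* at 0.858 to 2.32 included. These ranges do not compare the genes within a heart. Both lowest values were those of heart A and both highest those of heart 15, and in each *Pde2A*-/- heart *Oasl2* was above *Oas1a*. *Oas1c* was second of the members in *Pde2A*+/+ hearts and place 6 in *Pde2A*-/- hearts. Per kilobase not shared with other genes, *Oas1a* came first in *Pde2A*+/+ hearts at 0.657, ahead of *Oasl2* at 0.554. In *Pde2A*-/- hearts *Oas1a* was at 4.41 on this scale, behind *Oasl2* at 5.14, and *Oas1g* at 0.485 passed *Oas3* at 0.425, which became the lowest. Of the 8 members 5 kept their place in *Pde2A*+/+ and 4 in *Pde2A*-/- hearts.

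**Figure D4:**
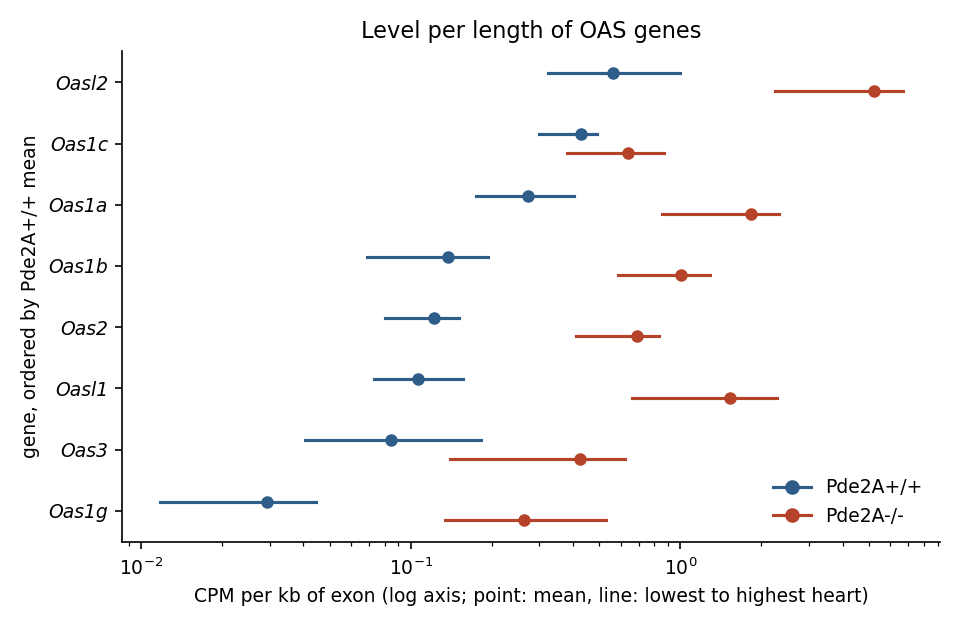
Level per length (CPM per kilobase of exon, log axis) of the 8 OAS genes; points are genotype means and lines run from the lowest to the highest heart. On this length *Oasl2* had the highest mean in both genotypes and *Oas1g* the lowest, while per kilobase not shared with other genes *Oas1a* was highest in *Pde2A*+/+ and *Oas3* lowest in *Pde2A*-/- hearts.

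Of the other genes of the pathway 3 are described. *Abce1*, which encodes a factor that recycles ribosomes, had 144 ± 18.7 CPM (SD, n = 5) in *Pde2A*-/- and 167 ± 11.1 (SD, n = 6) in *Pde2A*+/+ hearts (log2 -0.22 ± 0.08, edgeR adjusted p = 0.08). *Pde12*, a phosphodiesterase that degrades oligoadenylates, had 1.47 ± 0.402 CPM (SD, n = 5) and 2.13 ± 0.286 (SD, n = 6; log2 -0.53 ± 0.18, edgeR adjusted p = 0.0685). *Akap7*, an anchoring protein with a domain that can cleave oligoadenylates, had 28.6 and 27.4 CPM (log2 0.06 ± 0.06, edgeR adjusted p = 0.535). In edgeR 0 of these 3 genes passed the adjusted threshold, 2 had an unadjusted p under 0.05, and 2, *Abce1* and *Pde12*, passed in DESeq2.

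Hearts of the *Pde2A*-/- genotype differed among themselves. The summed CPM of the 8 members was 23.17 in heart A, 58.68 in B, 57.5 in 14, 49.69 in D and 66.23 in 15, against 4.987 to 9.337 in *Pde2A*+/+ hearts. Heart A was the lowest *Pde2A*-/- heart for 7 of the 7 called members, and heart 15 the highest for 6 of them, *Oas2* being highest in heart D. The mean log2 distance of the called members from the *Pde2A*+/+ mean was 1.76 in heart A and 2.70 to 3.28 in the others. Within a genotype *Oas3* spread most, with a 4.45-fold range among *Pde2A*-/- hearts and a 4.50-fold range among *Pde2A*+/+ hearts. Of the called members *Oas2* spread least, with ranges of 2.04-fold and 1.89-fold.

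**Figure D5:**
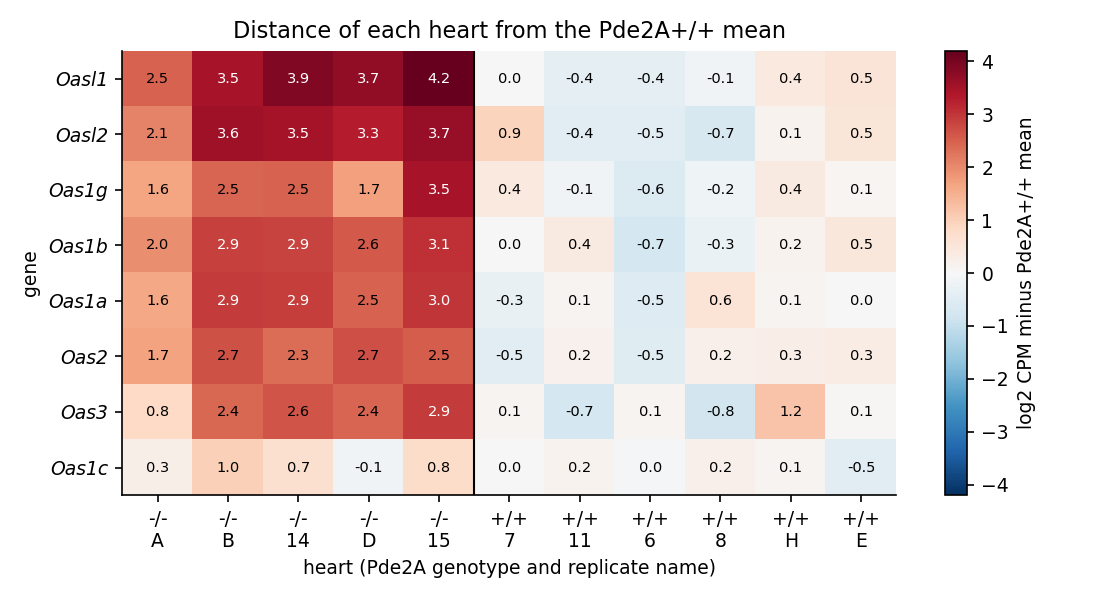
Log2 CPM of each OAS gene in each heart minus the *Pde2A*+/+ mean, with genes in rows and hearts in columns. Heart A was the lowest of the *Pde2A*-/- hearts for the called members, and *Oas1c* was closest to the *Pde2A*+/+ mean.

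Of the genes known to drive OAS transcription, the interferons themselves were at the limit of detection. Of 20 interferon ligands 17 had no counts in any heart, *Ifnb1* included, and no ligand had over 4 counts in a heart. A count of 0 in a heart allows up to 3 counts. One ligand, *Ifnz*, had the 10 counts needed for a test (log2 1.30 ± 0.96, adjusted p = 0.401).

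Of 11 interferon receptor and signalling genes 5 passed the adjusted threshold upward, against 8.93% of all genes tested. Of them 1 was called higher, against 2.21% of all genes. *Irf9*, the DNA-binding part of the interferon-induced complex, had 35.99 ± 7.64 CPM (SD, n = 5) in *Pde2A*-/- and 11.4 ± 0.873 (SD, n = 6) in *Pde2A*+/+ hearts (log2 1.66 ± 0.12, edgeR adjusted p = 5.66e-06). Its partner *Stat2* (log2 0.64 ± 0.08) rose too. The median log2 fold change of the list was 0.21.

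Of 6 interferon regulatory factors 3 passed upward, against 8.93% of all genes tested, with a median of 0.41. *Irf7*, the factor that amplifies type I interferon production, had 16.6 ± 6.55 CPM (SD, n = 5) in *Pde2A*-/- against 1.64 ± 0.43 (SD, n = 6) in *Pde2A*+/+ hearts (log2 3.34 ± 0.30, edgeR adjusted p = 1.45e-05). *Irf8* (0.56) and *Irf1* (0.52) rose by less. Heart 7 had 17.99 CPM of *Irf1*, against 9.35 to 11.83 in the other *Pde2A*+/+ hearts and 15.13 to 19.26 in *Pde2A*-/- hearts. Of 10 sensors of double-stranded RNA and DNA 8 passed upward, against 8.93% of all genes, and 4 were called higher, against 2.21%. The median of the sensors was 0.66. *Zbp1*, a sensor of Z-form nucleic acids, rose by 2.39 ± 0.31 on the log2 scale. *Dhx58* and *Ifih1*, which encode RIG-I-like RNA sensors, rose by 2.20 ± 0.22 and 1.93 ± 0.20.

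Macrophage markers moved in the same direction as the OAS genes. Of 23 markers 19 passed upward, against 8.93% of all genes tested, and 6 were called higher, against 2.21%. Their median log2 fold change was 0.91. Their summed level was 386.8 to 497.6 CPM in *Pde2A*-/- and 201.7 to 293.9 in *Pde2A*+/+ hearts. Heart A was the lowest of its genotype for this sum. It was also the lowest for the sums of erythroid (6023 CPM) and cardiomyocyte markers (47470), interferon regulatory factors (96.85) and sensors (189.4). It was not the lowest for endothelial, fibroblast, lymphoid and plasmacytoid or other-tissue markers. Of the most abundant, *Csf1r*, the receptor of a macrophage growth factor, rose by 0.65 ± 0.12 on the log2 scale, and *Mrc1*, a mannose receptor, by 0.97 ± 0.14. Without heart A, or without heart E, 10 macrophage markers were called. The part of these cells in the OAS result was not tested. No macrophage marker was at 0 counts in all hearts, and 20 of the 23 reached a mean of 1 CPM in *Pde2A*+/+ hearts.

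Markers of the other cell types in the heart were counted in the same way. Of 18 cardiomyocyte markers 5 passed downward, against 5.67% of all genes tested, and 1 upward (median -0.20), with *Myh7* at -0.08 ± 0.12 and *Actc1*, cardiac actin, at -0.04 ± 0.09. Of 12 endothelial markers 4 passed upward, against 8.93% of all genes tested, and 1 downward, against 5.67% (median 0.18). Their summed level was 1702 to 1943 CPM in *Pde2A*-/- and 1380 to 1653 in *Pde2A*+/+ hearts, with no overlap, and its part in the OAS result was not tested. *Eng*, an endothelial co-receptor, rose by 0.48 ± 0.08, and *Cdh5*, the endothelial cadherin, had a log2 fold change of 0.00 ± 0.08. Of 7 fibroblast markers 3 passed upward, against 8.93% of all genes tested (median 0.23). The abundant collagens *Col3a1* and *Col1a1* had log2 fold changes of 0.13 ± 0.12 and 0.06 ± 0.24. Of 13 erythroid markers 5 were called higher, against 2.21% of all genes tested, and 1 lower, against 0.372%. The globins *Hbb-y* and *Hbb-bs* had log2 fold changes of 0.24 ± 0.33 and -0.51 ± 0.32. The summed erythroid level overlapped, at 6023 to 9413 CPM against 4704 to 16605.

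Of 4 lymphoid and plasmacytoid markers tested 1 was called lower, against 0.372% of all genes tested. This was *Siglech*, a plasmacytoid dendritic cell receptor named after its values were seen (log2 -1.43 ± 0.42, edgeR adjusted p = 0.0392). It had 1 to 4 counts in a *Pde2A*-/- heart and 3 to 10 in a *Pde2A*+/+ heart, and no marker of this list was called when any one of 6 hearts was left out (14, D, 15, 7, 8 or H). *Cd3g* and *Cd3e*, parts of the T cell receptor complex, averaged 3.79 and 0.969 CPM in *Pde2A*+/+ hearts through heart 7, and *Cd3e* was at 0 in every *Pde2A*-/- heart. Of 7 markers of other tissues tested 0 passed in edgeR and 0 in DESeq2, and 2 had an unadjusted p under 0.05 in edgeR. These were *Foxn1*, a thymic transcription factor with 417 of its 418 counts in heart 7, and *Apoa1*, a liver apolipoprotein, both named after their values were seen. The most abundant, *Alb* and *Afp*, the fetal serum protein, had log2 fold changes of -2.52 ± 1.49 (adjusted p = 0.28) and -1.68 ± 1.36 (adjusted p = 0.447).

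The change was also set beside the neighbours of the OAS genes. Among the 40 tested genes next to both groups, 10 on each side, 1 was called higher, against 2.21% of all genes tested. Of these neighbours 5 passed upward, against 8.93% of all genes, and 1 downward, against 5.67%. Their median log2 fold change was -0.09. The 5 that passed upward all lay beside the second group (*Oas2* to *Oas1a*), and none beside *Oasl2* and *Oasl1*. No gene other than the OAS members was tested inside the groups.

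The genes whose level varied most like the called members, within genotype, were named by Pearson's r over 11 hearts among the 14017 genes whose mean reached 1 CPM, as a description over hearts scaled together. They were *Irf7* (r = 0.954), *Pparg* (0.946), *Irgm2* (0.938), *Mlxipl* (0.931), *Dennd4a* (0.930), *Mki67* (0.929), *Wipf2* (0.923) and *Lgals3bp* (0.920). Without heart A, 0 of these 8 were among the first 8, so the order rests on that heart. Of the members themselves, *Oasl1* followed the mean of the other called members most closely (r = 0.926) and *Oas1c* least (r = 0.289).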

How the data were processed

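Stranded mRNA libraries of 11 hearts were sequenced from one end. The authors aligned the reads with STAR (version not given in the sources used here) to GRCm38/mm10, and the deposited values are raw counts per gene, in separate columns for both strands together and for each strand. Of the per-strand columns, the one holding more reads was taken. Between 19.59% and 22.38% of reads were not on a gene and stayed out of library sizes.

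A minimum of 10 counts summed over the 11 hearts was set, and genes were tested with edgeR 4.0.16 (quasi-likelihood, TMM, no covariate) in R 4.3.3, with Benjamini-Hochberg adjustment over 24177 genes. The common biological coefficient of variation was 16.8%. The study's tool, DESeq2 1.42.0, was an alternative, with other scalings, filters, strand columns, thresholds, covariates (*Xist* level, naming style) and each heart left out. Ratios within a heart used a prior count of 2. On simulated counts of 23689 genes, of which 200 carried a log2 change of 2, 193 of the changed genes were found by edgeR (4 false calls) and 194 by DESeq2 (10 false calls). The changed genes were drawn only from genes above a minimum mean count, which *Oas1g* did not reach. These rates therefore do not cover genes with few reads.

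The members and lists were chosen with earlier results of these data known. Named were all members, other *Oas1* copies and partners, the 3 genes of largest change per pathway list, the 2 most abundant per marker list, and the 8 genes of most similar pattern; *Pde2a* was named as the target. Any other gene was named after its values were seen. Some genes of the lists are not reported here, and counts over the partner and signalling lists leave them out. Identifiers matched GENCODE M21 for 55141 of 55487 genes. Shared sequence was counted in 50-base words. Floors cover counting error only.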

Additional observations from a re-analysis of the deposited data

Results flagged for a closer look

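Single hearts were compared with the rest of their genotype by the gap to the nearest heart as a share of the genotype's whole range, for 48 sets of hearts. In 7 of these the share was above the 95% limit of 0.71 for 5 hearts or 0.625 for 6, which chance alone passes in about 1 set in 20. Heart A (*Pde2A*-/-) was far below its genotype for *Oas3* (share 0.7383), *Oasl2* (0.7564) and the summed OAS members (0.7265). Heart E (*Pde2A*+/+) was low for *Oas1c* (0.6387). Heart 7 (*Pde2A*+/+) was high for the lymphoid and plasmacytoid markers (0.8601) and for the interferon regulatory factors (0.7098), and heart D (*Pde2A*-/-) was high for transcripts of other tissues (0.857).

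Reads in the strand column not used for the comparisons were also counted. *Oasl1* had 10 such reads over the *Pde2A*-/- hearts, 1 to 3 per heart, which was 1.29% of the reads of both strand columns. It had 0 in *Pde2A*+/+ hearts, whose 7 to 17 *Oasl1* counts each were too few to show such a share. *Oasl2* had 60 such reads over the *Pde2A*-/- hearts, 6 to 26 per heart, against at most 3 in a *Pde2A*+/+ heart. As a share of the reads of both strand columns this was 0.919% in *Pde2A*-/- and 0.825% in *Pde2A*+/+ hearts.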

How the results depend on the processing

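The number of members called higher was 7 under each of 20 alternatives. Of 144 fold changes of members under alternatives, 142 kept their direction and side of the threshold, and *Oas1c* passed it in DESeq2 (log2 0.58) and without heart D (0.72). The number of pairs that differed ranged from 12 (without heart A, B, 14 or D) to 17 (without heart 7). Macrophage markers called higher numbered 6, and 5 to 10 with a heart left out. Lymphoid and plasmacytoid markers called lower numbered 1, with 0 in DESeq2, 0 with filterByExpr and 0 to 2 with a heart left out. Other-tissue markers called lower numbered 0, with 1 when naming style was a covariate and 0 to 2 with a heart left out. The causes were not tested. The log2 fold change of *Oas1g* ranged from 2.69 without heart 15 to 3.27 without heart A, and its counts in *Pde2A*+/+ hearts were at most 4. No paired analysis was possible because the genotypes share no replicate names.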

Other observations

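Besides *Oas1a*, *Oas1g* and *Oas1c*, the 16 letters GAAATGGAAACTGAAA occurred in promoter windows of *Apol9a* and *Apol9b*, a pair of apolipoprotein L genes. *Apol9a* had a mean of 0.556 CPM in *Pde2A*-/- and 0.247 in *Pde2A*+/+ hearts (log2 1.16 ± 0.26, edgeR adjusted p = 0.0131). *Apol9b* had 0.161 and 0.061 CPM (log2 1.36 ± 0.54, edgeR adjusted p = 0.103). Both were named after the letters were found in their windows.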
